A study of Mus musculus with 20 samples.

Results

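R342C is a form of the DNA-binding protein CTCF in which an arginine of the third zinc finger is replaced by cysteine, as its name says. Accessible chromatin of mouse embryonic stem cells living on R342C was compared with that of cells living on WT CTCF, as 1 list of Omni-ATAC peaks for each genotype. Omni-ATAC maps open DNA by the sites where a transposase can insert sequencing adapters, so a peak is an accessible site and not a CTCF site as such. All 171719 WT peaks and all 141104 R342C peaks were members, 312823 of the 1447820 peaks in the 10 lists of the series. A peak counted as found when at least 1 bp of it overlapped a peak of the other list, and otherwise as WT-only or R342C-only. Both groups were E14Tg2a embryonic stem cells of strain 129/Ola, grown without feeders with leukemia inhibitory factor, CHIR99021 and the MEK inhibitor PD0325901. Both carried an auxin-inducible degron on endogenous CTCF, and both received 500 µM IAA, which removes the endogenous protein, and 1 µg/ml doxycycline, which turns on the WT or R342C transgene, for 2 days. WT was therefore also a rescue by transgene, and no cells with their own CTCF left in place entered the comparison. The labels number 2 replicates for each genotype, and each deposited list was made from both. The labels do not say whether they were separate cultures or clones.

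CTCF holds a row of zinc fingers that wrap around DNA, and the middle fingers, the third among them, read the core of its binding motif. Where CTCF sits on DNA it keeps nucleosomes away and can stop cohesin, the ring complex that extrudes chromatin loops, so its sites are typically open and often mark loop anchors and domain borders. Most open sites of a stem cell, promoters above all, are kept open by other factors, so lists of this kind show CTCF sites among many others.

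Of the WT peaks, 126828 (73.9%, exact Clopper-Pearson 95% interval 73.65 to 74.07%) were found in R342C and 44891 (26.1%) were WT-only. Of the R342C peaks, 127314 (90.2%) were found in WT and 13790 (9.77%, interval 9.618 to 9.929%) were R342C-only. In DNA covered, the lists shared 62.3 Mb, which was 72.3% of the 86.1 Mb of WT and 87.1% of the 71.5 Mb of R342C. These intervals cover counting error only: with 1 pooled list per genotype no spread between replicates can be measured, and no difference between the lists carries a test. The read depth of the lists is unknown and may have differed. In 33.1% of WT peaks and 32.1% of R342C peaks the fold enrichment was a whole multiple of 1 step, within 1.1e-05, and if that step is 1 divided by the genome-wide background plus 1, as in the usual MACS2 formula, the background coverage was 5.96 in WT, 3.62 in R342C and 3.49 to 5.45 in the 8 other mutants. The peak names also carry library codes, which lie 28 apart for the 2 WT libraries and 1 apart for those of R342C. The part of depth or library in the WT-only and R342C-only counts was not tested.

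Some promoters show what a WT-only or R342C-only site was, and those with a match to the CTCF motif were picked for holding it. For each, 300 bases of RefSeq (GRCm38.p6, the build the submitters name as mm10) run from 250 bases before to 50 after the annotated start, on the strand of the gene, and a match to core letters of the CTCF motif is in capitals. These letters were CC, any 3 bases, AG, any 2 bases and GGC, searched on both strands. The promoter of the long noncoding RNA gene 4930529I22Rik (chr2:169405407-169405706, minus strand) is shown because its WT peak was absent from R342C alone. Those of Pcp4, a calmodulin regulator of Purkinje cells (chr16:96467356-96467655, plus strand), and 1700013F07Rik (chr3:108537334-108537633, plus strand) are WT-only promoters with a match. Those of Rasgrp3, an exchange factor that activates Ras (chr17:75465288-75465587, plus strand), Gm29733 (chr1:170850932-170851231, minus strand) and Gapdhs, the glyceraldehyde-3-phosphate dehydrogenase of sperm (chr7:30743632-30743931, minus strand), are R342C-only, and the last of them has a match.
4930529I22Rik: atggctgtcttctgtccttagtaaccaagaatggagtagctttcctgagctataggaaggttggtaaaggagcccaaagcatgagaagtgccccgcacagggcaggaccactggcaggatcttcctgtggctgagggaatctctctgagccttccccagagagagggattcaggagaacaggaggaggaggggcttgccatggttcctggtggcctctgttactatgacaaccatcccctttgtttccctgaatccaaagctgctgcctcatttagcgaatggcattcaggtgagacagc
Pcp4: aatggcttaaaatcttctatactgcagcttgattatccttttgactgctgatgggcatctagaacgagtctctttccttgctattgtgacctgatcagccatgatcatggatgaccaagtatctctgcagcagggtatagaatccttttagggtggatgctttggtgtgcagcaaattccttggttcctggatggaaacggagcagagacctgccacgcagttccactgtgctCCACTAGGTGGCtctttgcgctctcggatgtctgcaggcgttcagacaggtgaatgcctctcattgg
1700013F07Rik: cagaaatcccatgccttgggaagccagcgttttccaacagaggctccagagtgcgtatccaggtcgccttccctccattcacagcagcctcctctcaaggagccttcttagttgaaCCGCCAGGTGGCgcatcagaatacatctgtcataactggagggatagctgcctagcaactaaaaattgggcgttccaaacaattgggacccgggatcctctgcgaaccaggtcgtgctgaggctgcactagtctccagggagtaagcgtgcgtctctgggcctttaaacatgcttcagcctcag
Rasgrp3: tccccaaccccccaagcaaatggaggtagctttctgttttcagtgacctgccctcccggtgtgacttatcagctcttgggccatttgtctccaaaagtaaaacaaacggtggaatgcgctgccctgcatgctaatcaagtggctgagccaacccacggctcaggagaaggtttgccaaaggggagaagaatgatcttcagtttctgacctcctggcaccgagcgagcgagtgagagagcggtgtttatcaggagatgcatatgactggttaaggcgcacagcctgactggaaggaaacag
Gm29733: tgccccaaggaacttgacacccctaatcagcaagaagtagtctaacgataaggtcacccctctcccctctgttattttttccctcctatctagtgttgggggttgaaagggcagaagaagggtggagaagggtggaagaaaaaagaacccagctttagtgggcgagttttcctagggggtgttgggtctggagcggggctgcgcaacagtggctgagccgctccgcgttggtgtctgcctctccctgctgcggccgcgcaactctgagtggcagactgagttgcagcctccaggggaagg
Gapdhs: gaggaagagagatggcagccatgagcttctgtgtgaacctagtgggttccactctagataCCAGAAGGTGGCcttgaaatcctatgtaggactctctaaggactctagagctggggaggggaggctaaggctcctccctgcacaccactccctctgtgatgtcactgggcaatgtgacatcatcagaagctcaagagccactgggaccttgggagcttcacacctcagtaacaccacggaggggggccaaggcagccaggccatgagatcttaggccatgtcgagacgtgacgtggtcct

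Strength is given here by the value that the authors' list holds for each peak, read as the peak caller's fold enrichment from its range, since no header names it, and turned into a percentile within its own list, where 100 is the strongest peak. The 4930529I22Rik peak stood at percentile 77.7 in WT, was absent from R342C and stood at 64.0 to 81.9 in the 8 other mutants. The Pcp4 promoter peak was at 54.4 in WT and in 5 of the 8 other mutants, and that of 1700013F07Rik at 62.7 and in 3 of them. The Rasgrp3 promoter peak was at 69.6 in R342C, absent from WT and present in all 8 other mutants; it lies in the distal part of chromosome 17 described further on. The Gm29733 peak was at 55.8 in R342C and in no other list, and that of Gapdhs at 33.1 and in 3 of the 8 other mutants.

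Across 32817 distinct promoter windows, 16733 held a WT peak and 16283 an R342C peak. Of the windows with a WT peak, 853 (5.10%) held none of R342C, although in 276 of them the WT peak was overlapped outside the window, and 403 (2.47%) of those with an R342C peak held none of WT. The core letters were in 8.61% of all windows, in 12.6% of windows with a peak in both lists, in 8.44% of WT-only windows (interval 6.66 to 10.5%) and in 8.93% of R342C-only windows (6.34 to 12.2%). Windows with a peak in both lists were richer in G and C, at a median of 60.7% against 51.7% in WT-only windows and 54.0% in R342C-only windows. Among windows in the weaker 50% of WT, 45 of 254 (17.7%, interval 13.2 to 23.0%) with the core letters had no R342C peak, against 579 of 2333 (24.8%, 23.1 to 26.6%) without them. In the stronger 50% the shares were 1.48% and 1.64%. A pair of shorter runs of letters, searched on both strands, can overlap the core: AGGGGGC was in 10.6% of all windows and 9.03% of WT-only windows, and AGGTGGC in 6.15% and 7.50%. A match is a description of letters in a window, not a bound site.

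Whether a WT site was found in R342C followed its strength. From the weakest to the strongest of 10 bins of equal size, 38.1%, 45.1%, 51.0%, 60.2%, 71.5%, 83.1%, 92.4%, 97.6%, 99.6% and 99.9% of WT peaks were found. The same bins of R342C peaks were found in WT at 72.9%, 75.7%, 80.9%, 87.0%, 91.7%, 96.2%, 98.4%, 99.5%, 99.9% and 100%. In the strongest 20% of each list, 76 of 34343 WT peaks (0.221%, interval 0.174 to 0.277%) and 8 of 28220 R342C peaks (0.0283%, interval 0.0122 to 0.0559%) were missing. Of the strongest 1210 peaks of either list none was missing, which allows a share of up to 0.304% (exact interval). The count of 76 rests on any overlap counting as found: it was 508 when 50% of the WT peak had to be covered and 1065 with 50% of both peaks.

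**Figure D1:**
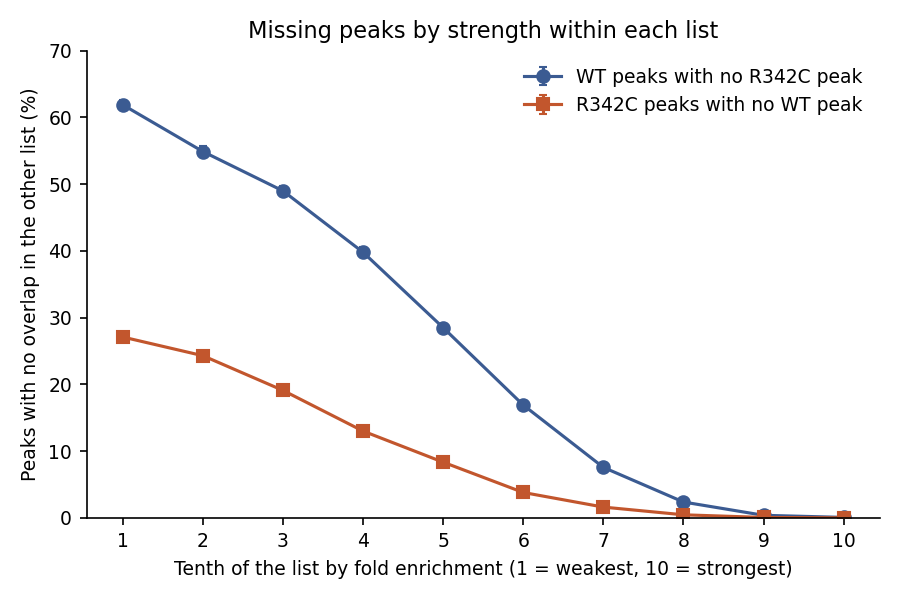
Share of peaks with no overlap in the other list (y axis, percent) by bin of strength within the list (x axis, 10 bins of equal size, 1 the weakest), for WT peaks sought in R342C (circles) and R342C peaks sought in WT (squares); bars are exact 95% intervals for counting error. The WT line falls from 61.9% in the weakest bin and lies above the R342C line up to the strongest bins, where both are near 0.

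Sites in 1 list only were weaker and narrower than shared ones. WT-only peaks had a median fold enrichment of 3.35 and a median width of 256 bp, against 5.74 and 489 bp for WT peaks found in R342C. R342C-only peaks had 3.46 and 248 bp, against 5.41 and 442 bp for the shared ones. Only 22 WT-only and 2 R342C-only peaks reached a fold enrichment of 10, and the highest were 14.7 and 10.4. They were mostly not shifted copies of a neighbour: the nearest R342C peak lay at a median of 2.41 kb from a WT-only peak, with 8.55% within 250 bp and 15.0% over 10 kb away. For R342C-only peaks the median was 2.55 kb, with 10.7% within 250 bp.

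At like strength, the share found also differed with width and spacing. Under the rule of at least 1 bp a wider peak has more bases that can overlap. The part of this in the values by width was not tested. In the middle 20% of WT peaks, 43.4% of the narrow peaks (200 to 308 bp) were missing from R342C, 18.1% of those of 309 to 470 bp and 6.38% of the wider ones. With another WT peak within 1 kb 17.1% were missing, with the next at 1 to 10 kb 24.0%, and with none within 10 kb 33.3%. Shared sites were also mostly narrower in R342C: over 118887 peaks that overlapped 1 to 1, the median was 484 bp in WT and 440 bp in R342C, and the R342C peak was the wider in 33.5%. In 3016 cases 2 or more R342C peaks lay on 1 WT peak, and in 2554 the reverse.

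Sites near gene ends were found most often at like strength. A gene-end peak is one that lies no more than 1 kb from where the annotation starts or ends a protein-coding gene, and a gene-body peak one inside such a gene otherwise. Gene-end peaks made up 12.8% of WT peaks, 6.39% of WT-only peaks and 5.60% of R342C-only peaks, against 10.8% of the weakest 20% of WT peaks. In the middle 20% of WT peaks, 10.5% of gene-end peaks were missing, against 24.3% of gene-body and 23.3% of intergenic peaks. In the weakest 20% the shares were 47.3%, 60.6% and 58.3%. Among R342C peaks of the middle 20%, 2.33% at gene ends, 6.0% in gene bodies and 6.96% between genes had no WT peak. Farther from genes the share was higher still: of middle WT peaks over 200 kb from any gene end 33.1% were missing, against 18.8% at 1 to 10 kb. Of the 76 strong WT-only peaks, 2 were gene-end, 32 gene-body and 42 intergenic.

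**Figure D2:**
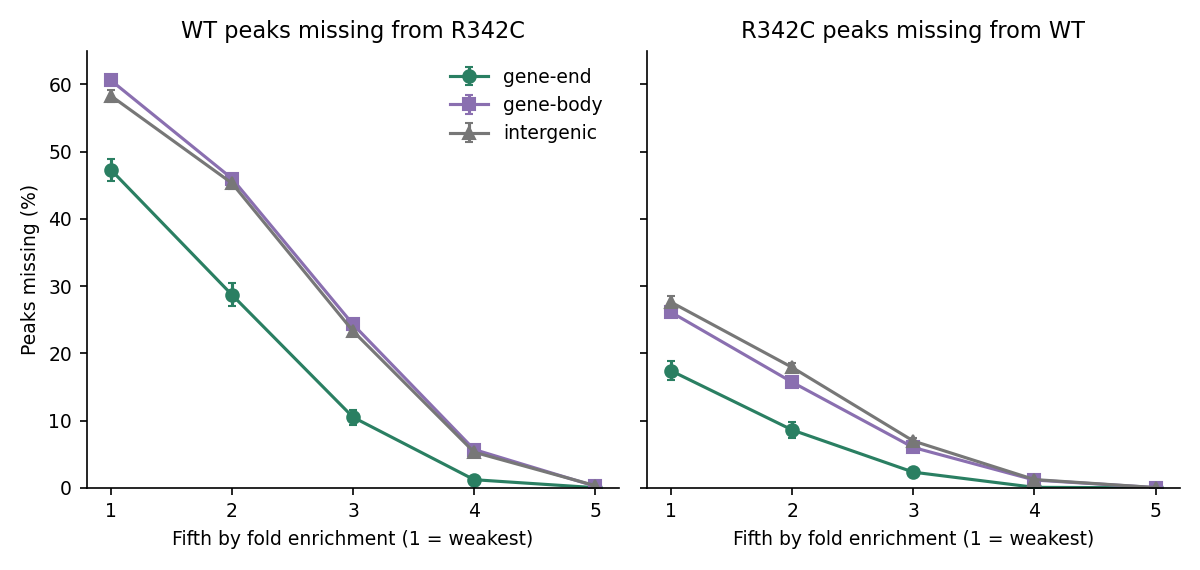
Share of peaks missing from the other list (y axis, percent) by bin of strength (x axis, 5 bins of equal size, 1 the weakest) for gene-end, gene-body and intergenic peaks of WT (left panel) and of R342C (right panel); bars are exact 95% intervals for counting error. Gene-end peaks lie lowest in the first 4 bins of both panels, at 10.5% against 24.3% and 23.3% in the middle bin of WT.

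With lists of equal size, each limited to as many of its strongest peaks as the shortest list of the series, R339Q, holds, missing sites were nearly as many on both sides. Of the WT peaks, 99876 (82.5%) were found and 21156 (17.5%) were not, and of the R342C peaks 20357 (16.8%) were not found in WT. The whole lists split these differently: the full R342C list held 4430 (20.9%) of the missing WT peaks, and the full WT list held 11983 (58.9%) of the missing R342C peaks. In these lists gene-end WT peaks were missing in 6.34% of cases, gene-body ones in 20.4% and intergenic ones in 18%.

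The order of shared sites was largely kept. Over 96270 pairs of peaks that overlapped 1 to 1 in the lists of equal size, the place in the list differed by a median of 10280. Of 23626 pairs in the strongest 20% of WT, 19146 (81.0%) were in the strongest 20% of R342C and 310 in its weaker 50%. In the other direction 201 pairs were in the strongest 20% of R342C and the weaker 50% of WT. Gene-end sites stood higher in R342C: 66.5% of 15361 such pairs had the higher place there, by a median of 2278 places, against 49.6% of gene-body and 50.5% of intergenic pairs. Gene-end peaks made up 29.9% of the strongest 20% in R342C and 27.1% in WT. The 8 other mutants, which share the WT list, had 59.4% (Q418R) to 69.9% (R339Q) of gene-end pairs higher than in WT.

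**Figure D3:**
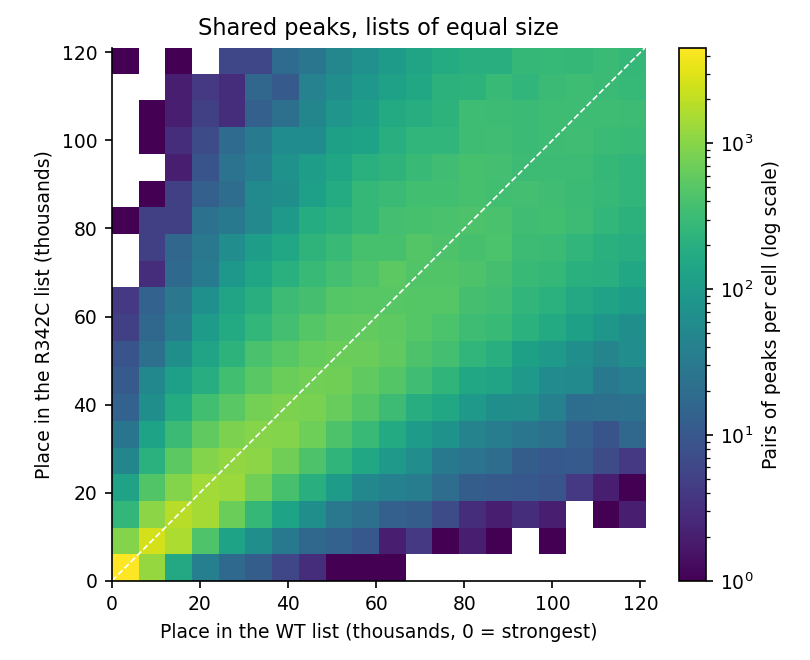
Place of shared peaks in the WT list (x axis, in units of 1000 places) against their place in the R342C list (y axis, same unit), for 96270 pairs of peaks that overlapped 1 to 1 in lists of equal size; 0 is the strongest, the colour is the number of pairs per cell on a log scale, white cells hold none and the dashed line marks equal places. The pairs are densest at the strong end along the line and spread widely among weak peaks.

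A few shared sites changed place by most of the list. A site inside Dkk2, a secreted inhibitor of Wnt signalling, had fold enrichment 15.5 and place 6017 in WT and 3.46 and place 115338 in R342C. One inside Prickle2, a planar cell polarity gene, went from place 10024 in WT to 108286 in R342C. Sites 19.3 kb from Pax3, a transcription factor of neural crest and muscle, and 129 kb from Jag1, a Notch ligand, stood at 16887 and 18063 in WT and at 114828 and 115126 in R342C. In the other direction, a site inside Srgap2, a gene of neuronal migration, stood at 115398 in WT and 17657 in R342C. One inside Cald1, which encodes the actin-binding protein caldesmon, stood at 116242 and 18899. All these were chosen for the size of the difference. At the Dkk2 site the other mutants ranged from place 14641 to 91777, with the site outside the list of R339Q. They ranged from 26356 to 68336 at Prickle2, from 17711 to 76469 near Pax3, again without R339Q, and from 23987 to 79105 near Jag1. At Srgap2 they ranged from 10007 to 64319, and at Cald1 from 30253 to 87914, with the site outside the list of R377H. R342C thus lay within their range at Srgap2 and beyond it at the 5 other sites.

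The strongest WT-only peaks lay inside or far from genes. The strongest of all was a peak of 449 bp inside Rasgef1c, a gene for a Ras-type exchange factor (chr11:49928328-49928776), with fold enrichment 14.7 and percentile 95.6 in WT. The nearest R342C peak was 25.8 kb away, and all 8 other mutants held the site, at percentiles from 5.61 to 77.2. The next was 31.9 kb from Kitl, which encodes the ligand of the KIT receptor (chr10:99983434-99983945, percentile 94.4), and was also absent from R339Q, R377H and R448Q. A peak 154 kb from the ephrin receptor gene Epha7 (chr4:28658749-28659158) stood at 92.5 in WT and at 16.9 to 92.2 in the 8 other mutants. A peak 257 kb from Lnpk, a neighbour of the HoxD cluster (chr2:74257134-74258224), was the widest of the 10 strongest at 1091 bp, with percentile 91.1. The others of the 10 were inside Utrn (utrophin), Mast4 and Hmcn2, 51.9 kb from the nidogen gene Nid2, 33.1 kb from Mylip and 183 kb from Dmrta1. At the Utrn site the numbers in the R342C peak names skip 1, so its absence there is uncertain.

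Most of the 76 strong WT-only sites were held by most other mutants, which are compared with the same WT list. All 8 other mutants held 19 of them, none was missing from all 8, and R339Q, with a change in the same zinc finger, lacked 36. R448Q lacked 26, R377H 17, R377C 15, K365T 13, S354F 12, Q418R 10 and H455R 5. Of all the strongest 20% of WT peaks, R339Q lacked 0.964% and R448Q 0.891%, the highest shares of any mutant. The other mutants lacked 0.114% (R377C) to 0.408% (Q418R). Among the 19 were also a peak inside Adgrb3, an adhesion receptor gene (chr1:25204665-25204992, percentile 87.2), and one 13.0 kb from Rsl24d1, a ribosome assembly factor (chr9:73136171-73136478, 86.1).

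R342C-only peaks were weaker. The strongest lay 13.5 kb from Pamr1 (chr2:102536275-102536690), with fold enrichment 10.4 and percentile 85.5, and 7 of the 8 other mutants held it too. The next was 3.10 kb from Mmp17, a membrane-bound matrix metalloproteinase (chr5:129614017-129614375, percentile 84.4, 6 of 8 others). One inside Gatb, a subunit of a mitochondrial tRNA amidotransferase (chr3:85638327-85638888, 83.2), was in all 8. Further ones of the strongest 10 lay inside Arhgap22, Camkmt, the semaphorin receptor gene Plxna2 and the ion channel gene Asic2, and 43.7 kb from Qpct, 50.0 kb from Prkar2b and 54.5 kb from Tspan17. Of all R342C-only peaks, 2440 (17.7%) were in no other list and 220 (1.60%) in all 8 other mutants. The strongest in no other list was inside D430042O09Rik (chr7:125723119-125723389, percentile 65), followed by peaks 268 kb from Zfp637 (59.1) and inside Phyhipl (58.9). Of the WT-only peaks, 9310 (20.7%) were in none of the 8 other mutants and 874 (1.95%) in all of them.

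In some regions R342C lay outside the range of the 9 other lists, as every list did in some; those named here were chosen after their values were seen. In the merged regions of the series, 803 were absent from R342C and present in the 9 others, a count that ran from 195 (WT) to 3656 (R339Q) when each list in turn was taken as the one without. One of them lay 42.0 kb from the importin gene Ipo5 (chr14:120854646-120854983, percentiles 39.5 to 86.5 in the others) and one inside Cfap36 (chr11:29232002-29232421, 34.4 to 91.1). In 162 regions R342C was over 20 percentile points below all the others, a count that was 49 (R377C) to 1081 (R339Q) for the other lists taken the same way. Those of R342C included a region inside Wif1, a secreted Wnt inhibitor (8.27 in R342C, 52.8 to 86.7 elsewhere), one 5.73 kb from the homeobox gene En1 (13.7, elsewhere 54.4 to 79.8), one inside the RNA-binding protein gene Celf2 (13.5, elsewhere 49.2 to 77.3) and one 447 kb from Zfp462 (13.2, elsewhere 61.1 to 91.4). In 18 regions R342C was over 20 points above all the others, against 3 (R377C) to 154 (WT) for the other lists, such as one inside the transcription factor gene Ets1 (65, elsewhere 7.0 to 27.0) and one inside Bptf, the large subunit of the NURF remodeller (71.5, elsewhere 7.87 to 47.3).

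Beside the other mutants R342C held a middle place. It kept 73.9% of WT peaks, the fifth highest of 9 values that ran from 64.9% (R339Q) to 80.7% (H455R). Its 76 missing strong WT peaks compare with 39 (R377C) to 331 (R339Q), and its 9.77% of peaks without WT overlap with 7.14% (R339Q) to 14.8% (R448Q). With lists of equal size it kept 82.5%, between 78.4% (R339Q) and 84.4% (R377C). R339Q, the other change in the third zinc finger, had the lowest share of WT peaks found in both settings, and its list is the shortest. All 9 values share the WT list, and their differences carry no test.

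**Figure D4:**
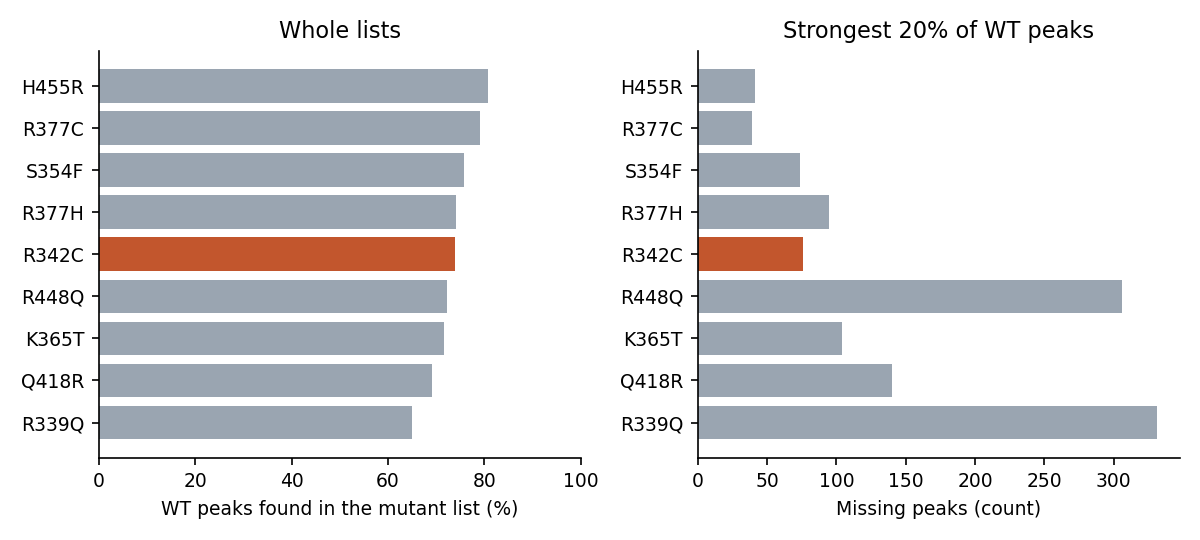
Share of WT peaks found in each mutant list (left, x axis in percent) and number of the strongest 20% of WT peaks missing from it (right, x axis as a count), with mutants in the same order in both panels and R342C in orange. R342C lies in the middle at 73.9% and at 76, between 64.9% and 331 for R339Q and 80.7% and 41 for H455R.

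Most genes kept accessible ends, counted as a gene-end peak in both lists at either end, not always the same peak. A WT gene-end peak was present in 15483 protein-coding genes, and 533 of them (3.44%) had none in R342C. An R342C gene-end peak was present in 15121 genes, and 171 of them (1.13%) had none in WT. In 55 of the 533 and 19 of the 171 the peak had an overlap in the other list that did not reach the gene-end window. Genes in WT only had weak peaks, at a median percentile of 28.5 against 85.5 for genes in both. Among the genes whose WT peak was not overlapped, the strongest were Lrit1, a retinal membrane protein gene (percentile 82.7), and Xlr3c of the X-linked Xlr family (80.3; its promoter peak was 36.1 kb from any R342C peak). Next was Brox (77.7), which shares its WT peak of 1746 bp with the end of Aida (chr1:183296446-183298191). In the R342C peak names 2 numbers are skipped there, so its absence is likewise uncertain. Itih4 (72.5), the anion exchanger gene Slc26a7 (72.7), Bpifc (71.4), Spata31d1a (69.5), Gm17660 (67.9), Tmprss11g (66.4) and Pnma3 (66.2) followed. Slc26a7, Bpifc and Pnma3 had a gene-end peak in all 8 other mutants. Among genes in R342C only whose peak was not overlapped, the strongest were the olfactory receptor gene Olfr339 (59.4), the inflammasome gene Nlrc4 (57.9), the phosphatase gene Ptprb of blood vessels (54.1), the folate enzyme gene Ftcd (52.9) and Alppl2 (52.7).

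The ends of stem cell genes were kept. Of 19 naive pluripotency genes with a WT gene-end peak all 19 had one in R342C, among them Klf5 (percentile 97.8 in WT and 98.8 in R342C), Zfp42 (89.3 and 91.2) and Tbx3 (84.6 and 89.1), all transcription factors. All 12 genes of the LIF and STAT3 pathway, all 15 of the FGF and ERK pathway and all 12 of Nodal and Lefty signalling kept theirs, with Jak1, the kinase that phosphorylates STAT3, at 99.1 and 99.6. Of 16 Wnt pathway genes 15 did, the exception being Axin2, a feedback inhibitor of the pathway, with a WT peak at percentile 6.48. The 7 formative genes kept one. At Otx2 the strongest stood at 72.2 in WT and, at the other end of the gene, at 16.1 in R342C. These are different peaks: the WT peak was itself overlapped by an R342C peak, so the values do not show its loss. Over all protein-coding genes 3.44% of those with a WT gene-end peak had none in R342C, so 0 or 1 missing in lists of this size is near that background.

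Genes of other lineages, listed as markers of cells that could be mixed in, mostly kept theirs too. All 10 mesoderm, all 11 neural and all 7 trophoblast genes with a WT gene-end peak had one in R342C. Of 5 primitive endoderm genes 4 did, and at the exception, Sox17 (66.6 in WT), R342C overlapped the WT peak just beyond the window. Of 8 fibroblast markers 7 did, the exception being Dcn (24.7), the gene of the matrix proteoglycan decorin. Genes of the 2-cell-like state had no gene-end peak in either list. An accessible promoter does not show that a gene is transcribed, so these counts do not show which cell types were present.

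Genes tied to CTCF and cohesin mostly kept their ends as well. Of 15 with a WT gene-end peak 14 had one in R342C, where over all protein-coding genes 3.44% of those with a WT gene-end peak had none. Smc1a, a cohesin core subunit, stood at 97.1 in WT and 97.7 in R342C. Pds5b, a regulator of cohesin release, stood at 95.4 and 94.9. The exception was Rad21, the cohesin subunit that closes the ring, whose strongest WT peak within 1 kb of an annotated end stood at 40.7; among the other mutants H455R held a peak there, at 11.6. Within the 16 genes, 68 of 165 WT peaks (41.2%, interval 33.6 to 49.1%) were WT-only, against 26.1% over the whole list. Of all gene-body WT peaks, the nearer comparison for peaks inside genes, 25021 of 84055 were WT-only. The share of 41.2% was the highest among the gene lists, before 32.8% at olfactory receptor genes. It was not counted in the other mutants, and whether it exceeds that of other genes was not tested. The interval treats peaks of 1 gene as independent, and the counts fell most in Stag1 (44 WT and 23 R342C peaks), Pds5b (20 and 10) and Pds5a (14 and 5). Of 103 R342C peaks in the genes 7 (6.80%) were R342C-only. In the cohesin release factor gene Pds5a 10 of 14 WT peaks were missing from R342C. The Ctcf gene held 10 WT and 8 R342C peaks, the strongest at its start, with percentiles 84.0 and 83.4. All 12 chromatin remodeller genes had a gene-end peak in both lists, with 29.6% of their WT peaks WT-only. At Chd7 the strongest WT gene-end peak, at 33.3, was not overlapped in R342C. The strongest of R342C lay at the other end of the gene, at 3.42, where a WT peak overlapped it.

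Gene clusters that depend on CTCF for their domain structure kept most of their ends. Of all protein-coding genes with a WT gene-end peak 3.44% had none in R342C. In the clusters 2 of 35 Hox genes, 2 of 22 imprinted genes and 3 of 32 clustered protocadherin genes had none. These shares are above that of all genes, but the counts are too small to set them apart from it, and no test was made. Of 35 Hox genes 33 kept a gene-end peak, such as Hoxd1 (93.0 in WT, 89.4 in R342C). The exceptions were Hoxd11, at 6.76 in WT and in no other list, and Hoxc12, at 58.8 with the WT peak overlapped. Hoxd4 counted as kept, but its strongest WT gene-end peak (30.7) was not overlapped. That of R342C (50.6) lay at the other end, where a WT peak overlapped it. Of 22 imprinted genes 20 kept one, among them Zim1 (100 and 99.9) and Kcnq1ot1 (97.4 and 98.4). The exceptions, Dlk1 (10.2) and Rtl1 (19.9), are neighbours in 1 imprinted cluster. Of 32 clustered protocadherin genes, which encode the surface proteins that tell neurons apart, 29 kept one, and Pcdha1 (34.8), Pcdhb11 (10.4) and Pcdhb17 (27.8, overlapped) did not. All 80 ribosomal protein genes with a WT gene-end peak kept one. Of their 173 WT peaks 19 (11%, interval 6.74 to 16.6%) were WT-only, against 26.1% of the whole list. That is near the 12.7% of all WT peaks centred under 1 kb from a gene end. Olfactory receptor genes, silent outside the nose, were at the other end: 44 of 1110 had a WT gene-end peak, of which 30 had one in R342C.

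The WT-only share was even over the chromosomes, with 1 exception. On the autosomes and X it ran from 23.0% (chromosome 17) to 27.9% (chromosome 5), and the R342C-only share from 8.36% (chromosome 6) to 14.6% (chromosome 17). The exception came from distal chromosome 17, from 70 to 95 Mb, which held 1142 WT and 1486 R342C peaks. There 12.5% of WT peaks were WT-only and 525 R342C peaks (35.3%) were R342C-only, against 25.0% and 8.10% on the rest of the chromosome and 26.3% and 9.55% on all others. The segment held 0.665% of the WT list, 0.694% of that of H455R, 1.05% of that of R342C and 0.993 to 1.06% of the 7 others, so WT and H455R stood low there. Without it 73.8% of WT peaks were found and 9.50% of R342C peaks were R342C-only. In R342C, 7 of 494 bins of 5 Mb differed from the median of the other lists by over 0.2 on the log2 scale of shares, and no run of them formed a segment. The lowest was chromosome 1 from 140 to 145 Mb (-0.31) and the highest the first 5 Mb of chromosome 18 (0.26). The WT-only share was highest on chromosome 5 from 150 to 155 Mb, at 43.6%, where WT itself stood 0.38 above the other lists on the same log2 scale, followed by chromosome 6 from 60 to 65 Mb at 41.1%, where R342C stood at -0.26.

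**Figure D5:**
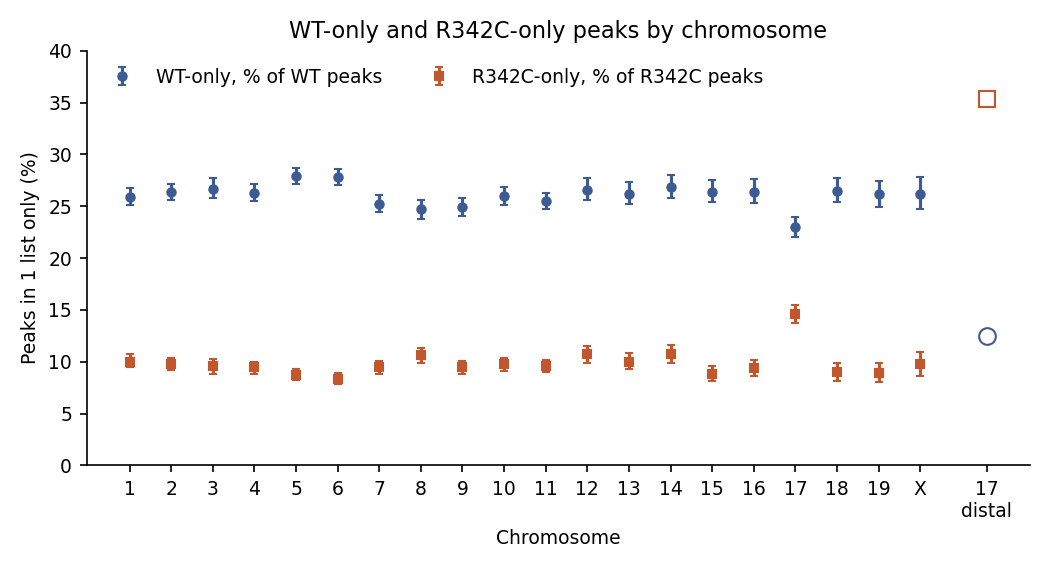
Share of WT peaks that were WT-only (circles) and of R342C peaks that were R342C-only (squares) on each chromosome (y axis, percent), with exact 95% intervals for counting error; the open symbols at the right give distal chromosome 17 alone. Chromosome 17 lies lowest for WT-only at 23.0% and highest for R342C-only at 14.6%, and its distal part at 12.5% and 35.3%.

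The share of missing sites differed between genes, with no test of whether it did so beyond chance. Among 2966 protein-coding genes with 10 or more WT peaks, the median share missing from R342C was 27.3%; 182 genes lacked 50% or more and 40 lacked none. In Slc16a10, an amino acid transporter gene, 9 of 11 WT peaks were missing, in Fnbp1l, a gene of membrane bending, 13 of 16, in the Golgi protein gene Glg1 14 of 21 and in the kinase gene Wnk1 14 of 22. Among the 40 were Gpr39 with 18 WT peaks and Inpp4a with 15. R342C-only peaks were most numerous in Camkmt and Ltbp1, with 17 each, both on distal chromosome 17; Ltbp1, which encodes a binding protein of latent TGF-beta, held 7 WT and 24 R342C peaks. Outside that chromosome Nav2 had 14 and Camta1 13, beside 23 and 31 WT-only peaks.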

How the data were processed

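Omni-ATAC libraries of R342C and WT cells were read, per the submitters' processing notes, with Trim Galore, Bowtie2, MACS2 and deepTools on mm10; their versions, filters and thresholds are not stated there. For each genotype the authors deposited 1 list of peaks, named for its 2 replicates, and the fifth column was read from its values as the fold enrichment of each peak (a linear ratio to background), which no header states. That value was the authors' own and served only to rank, bin and describe peaks within a list. All peaks on chromosomes 1 to 19, X and Y were used, and no rows were left out. Overlaps, bins of strength, places and exact Clopper-Pearson 95% intervals were computed with Python 3.11.15, numpy 2.4.6, pandas 2.3.3 and scipy 1.17.1, after the overlap functions were tested on simulated lists, and figures were drawn with matplotlib 3.10.9. Gene ends came from a RefSeq table of 21887 protein-coding genes on GRCm38.p6, and promoter windows from the matching sequence table. No test between genotypes was possible with 1 pooled list each. The peak numbers of R342C skip 1922 of 143026 (1.34%) and those of WT 2330 of 174049 (1.34%). Sites were named by rank: the strongest WT-only and R342C-only peaks and genes, the largest differences in place, and every listed gene in 1 list only. The printed promoters were instead picked as examples. Those of 4930529I22Rik, Rasgrp3 and Gm29733 came from among the strongest windows with a peak in 1 list. Those of Pcp4, 1700013F07Rik and Gapdhs came from among the strongest such windows that hold the core letters. Windows on chromosome 18 were left out of that choice. The members and gene lists were chosen with earlier results of these data known. Alternatives in overlap, list size, gene-end window and merging are given in the closing section.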

Additional observations from a re-analysis of the deposited data

How the results depend on the processing

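Under 22 of 31 alternatives a count stayed within 1.5 times its value. The other 9 were these. With only the stronger 50% of each list sought, which takes fewer peaks by construction, 81172 of 85859 WT peaks were found and 835 of 70552 R342C peaks were absent. With an overlap of 50% of both peaks, 26585 R342C peaks (18.8%) were absent from WT and 1065 of the strongest 20% of WT peaks were missing, and with 50% of the WT peak covered 508 were. With a window of 500 bp, gene-end peaks were 3.33% of WT-only and 3.36% of R342C-only peaks, and with 2 kb 11.4% and 9.44%. Chosen after seeing the data, leaving out distal chromosome 17 gave 125829 WT peaks found and 13265 R342C peaks absent, and leaving out sites where the other list skips a number gave 13660 absent, 75 strong WT peaks missing and 521 genes in WT only. No paired analysis was possible because the 2 replicates of each genotype were pooled in 1 list, and leaving out a replicate was not possible for the same reason. No read depth is known for either list, so a peak absent from a list was not called there, which is not the same as closed.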

Other observations

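The densest clusters of sites in 1 list only lay in different places for the genotypes. The 6 windows of 100 kb with the most R342C-only peaks were all on distal chromosome 17, led by 14 around Fbxo11, a gene for an F-box protein of a ubiquitin ligase, where WT had 14 peaks, R342C 26 and the other mutants 14 (H455R) to 25. A window in Ltbp1 held 2 WT and 13 R342C peaks, with 1 to 13 in the other mutants. The windows with the most WT-only peaks were elsewhere, among them 1 with 19 in Cobl, an actin nucleator gene (34 WT and 16 R342C peaks, 18 to 29 in the other mutants), and 1 with 18 around Elovl6 and Egf, a fatty acid elongase and the epidermal growth factor (32 and 14, with 13 to 23). A further 17 lay in Kat6b, a histone acetyltransferase gene (35 and 22, with 14 to 29).

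Among the stronger 60% of WT peaks, 9.29% were missing from R342C, and 3 runs of 6 consecutive peaks were missing together. They lay in Rora, a nuclear receptor gene (chr9:69092190-69184835), in Poc1b, a centriole gene (chr10:99179240-99197440), and around Magea4 and Gabre on the X chromosome (X:72218201-72256963). In the Rora run the other mutants lacked 1 (H455R) to 6 of its 8 WT peaks, against 7 in R342C. In the Poc1b run they lacked 4 to 6 of 6, and in the run around Magea4 and Gabre 1 (S354F) to 6 of 6.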
